A study of Mus musculus with 6 samples.

Results

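The odorant receptors (ORs) of the Class II clusters on mouse chromosome 7 were examined in the olfactory mucosa of mice that lack both receptor transporting proteins, RTP1 and RTP2. The members were all genes named exactly Olfr470 to Olfr541 or Olfr693 to Olfr716, which gave 76 of the 24661 genes in the files. All 76 lay on chromosome 7 (GRCm38) and none was marked as a pseudogene, so that they made up 76 of the 1086 intact ORs. The term Class II comes from the names of the clusters and was not tested. By position the members fell into 3 clusters of 2, 60 and 14 genes, split where neighbours lay over 1 Mb apart. The cluster of 60 was divided further by gene number alone, which made 4 stretches. First along the chromosome were Olfr520 and Olfr521, then 20 members from Olfr693 to Olfr716. After these came 40 members from Olfr470 to Olfr519, and last 14 members from Olfr522 to Olfr541.

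ORs are G protein-coupled receptors of olfactory sensory neurons (OSNs). Each mature OSN expresses a single OR allele, and OSNs that have chosen the same OR send their axons to shared glomeruli in the olfactory bulb, so that the RNA of an OR in whole tissue follows both how many OSNs chose it and how much each of them transcribes. In bulk RNA fewer cells of a type and less RNA per cell cannot be told apart. RTP1 and RTP2 help ORs leave the endoplasmic reticulum and reach the surface of the neuron. Mammalian ORs are divided into Class I receptors, which resemble those of fish, and Class II receptors, which make up most of the repertoire and sit in clusters of related neighbours that arose by duplication.

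RNA was sequenced from 3 wild-type and 3 RTP1,2DKO mice, labelled C57BL/6 and postnatal day 21. According to the methods, RTP1,2DKO mice lack the coding regions of both genes throughout the body, came from 129/B6 hybrid embryonic stem cells and were backcrossed to C57BL/6, and each group of 3-week-old littermates held 2 males and 1 female. The dissected tissue was the whole mucosa, with respiratory, glandular and connective tissue besides the neurons. Total estimated counts lay between 31125410 and 41636996 per mouse. Rtp1 had 20520, 25300 and 13540 normalised counts in the wild-type and 90.6, 85.5 and 109 in RTP1,2DKO, and Rtp2 fell from 7157 to 9510 normalised counts down to 26.2 to 58.0. The libraries thus matched their labels. Among the mature OSN markers 6 of 7 were lower in RTP1,2DKO, and their summed normalised count went from between 152800 and 176600 to between 77460 and 84110. Of the 4 immature OSN markers 2, Gap43 and Gng8, were higher. None of the markers of progenitors, horizontal basal cells, sustentacular cells, Bowman gland, respiratory ciliated cells, ensheathing glia, blood and macrophages passed the test, and with mice of the same replicate number treated as pairs the progenitor marker Top2a was higher (adjusted p = 0.015, edgeR) and all 7 mature OSN markers were lower. No marker of any list was at 0. The blood list had the largest median difference among these, a log2 value of 0.76, with summed counts of 55000 to 89700 in the wild-type and 87560 to 159900 in RTP1,2DKO. The part of cell composition in the differences below was not tested.

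Most of the Chromosome 7 Class II ORs had fewer counts in RTP1,2DKO. With counts scaled by size factors over all genes, 34 of the 74 members with at least 1 count were lower in RTP1,2DKO and 2 were higher at an adjusted p-value under 0.05 (edgeR quasi-likelihood test, Benjamini-Hochberg over 22152 genes), and 38 did not pass. On simulated counts this fit made more false calls than its nominal level, so calls near the threshold are less certain. Among all genes tested 3.15% were lower and 0.46% were higher, and among the intact ORs the shares were 38.3% and 4.36%. The members' 45.9% lower is therefore far from the share among all genes and nearer to that among ORs. The median log2 fold change of the 74 members was -1.48, beside -1.06 for the 1004 other intact ORs and 0.02 for all genes tested. Every RTP1,2DKO mouse was below every wild-type mouse for 45 members, or 60.8%, where 9.24% of all genes and 52.1% of intact ORs showed such a gap. The reverse gap was seen for 5 of the 74 members, Olfr479, Olfr512, Olfr519, Olfr527 and Olfr715. It was also seen for 129 of the 1078 intact ORs and 1589 of the 22152 genes tested, so it is not more frequent among the members.

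**Figure D1:**
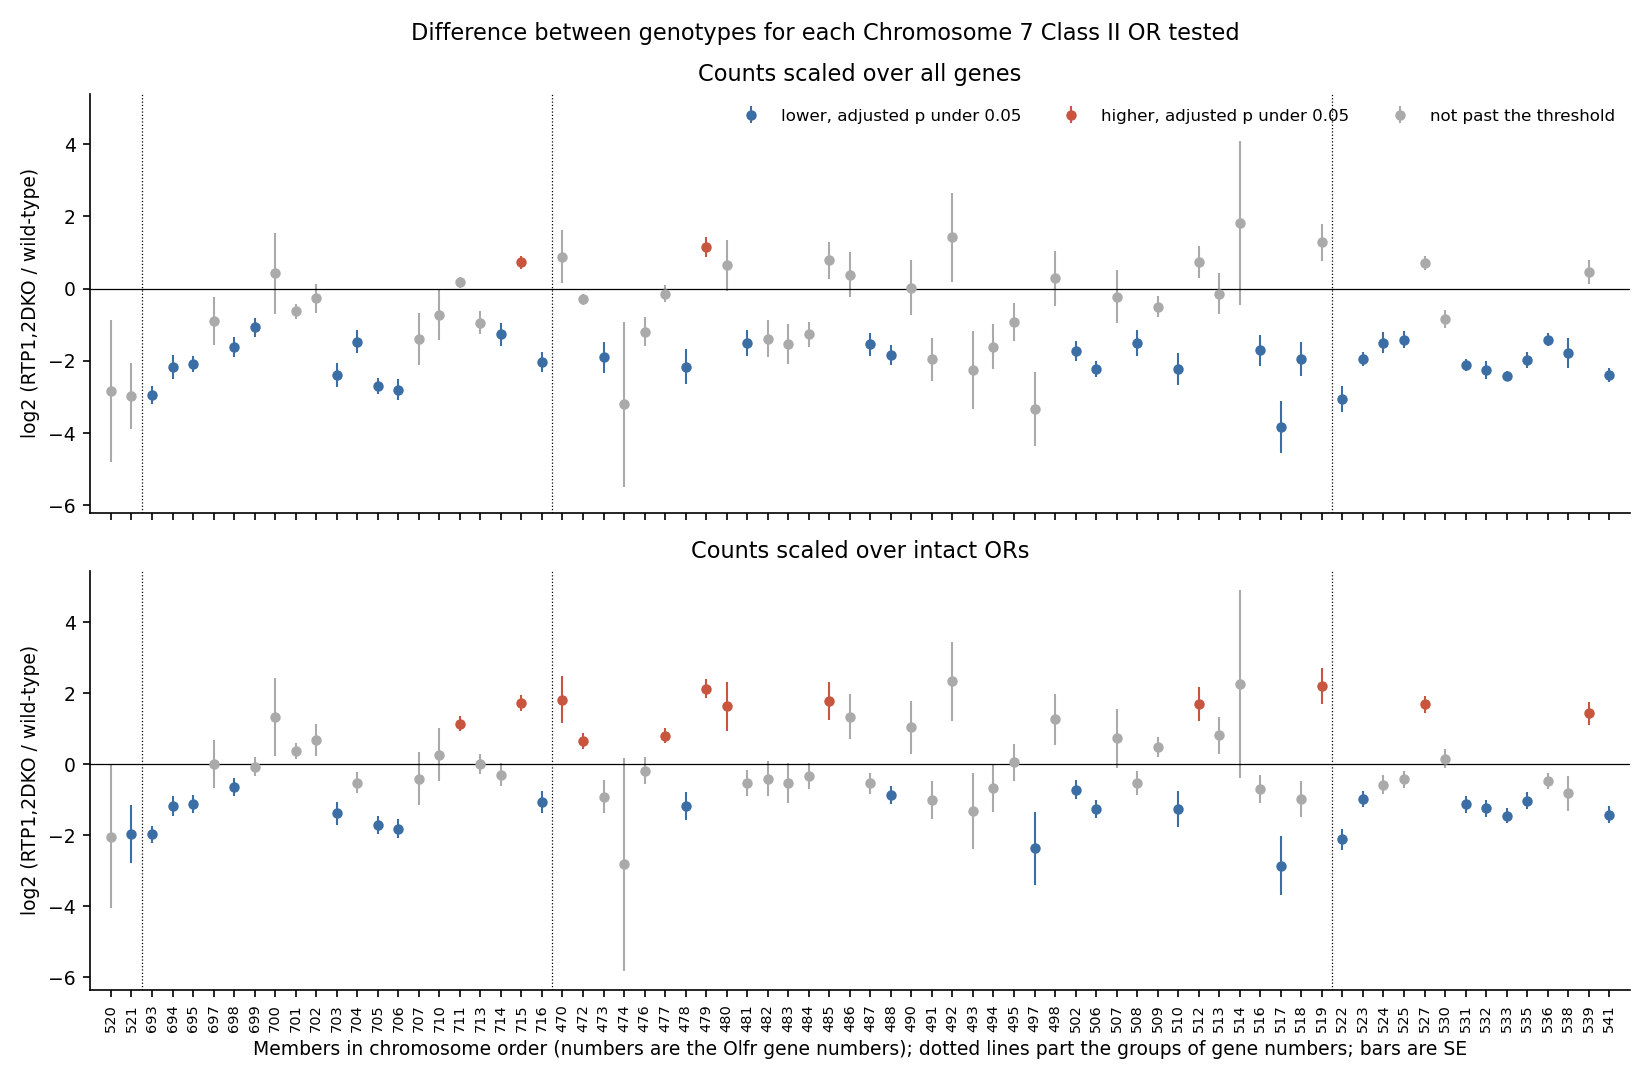
Log2 ratio of RTP1,2DKO to wild-type for the 74 members tested, in chromosome order, with counts scaled over all genes (top) and over intact ORs (bottom). Points are the fitted values, bars the SE, and colours the test at an adjusted p-value of 0.05. The stretch from Olfr522 to Olfr541 on the right is nearly all below 0 in the top panel, with 11 of 14 members lower.

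A single value per mouse gives the size of the change without a test of each gene. The members together had 17113, 18370 and 14922 normalised counts in the wild-type mice and 8554, 6977 and 7352 in the RTP1,2DKO mice. The groups did not overlap, and the mean went from 16802 ± 1745 to 7628 ± 824 (SD, n = 3), or 45.4% of the wild-type (exact two-sided permutation test, p = 0.1, the lowest value that groups of 3 can give). As a share of all counts on intact ORs, the members took 5.33, 5.15 and 4.82% in the wild-type and 2.83, 2.67 and 2.41% in RTP1,2DKO. The share thus went from 5.10 ± 0.26% to 2.64 ± 0.21% (SD, n = 3; exact permutation test, p = 0.1). All intact ORs together took 0.955 ± 0.154% of all counts in the wild-type and 0.818 ± 0.101% in RTP1,2DKO (exact permutation test, p = 0.3). By share of all counts the log2 ratio was -0.22 for all intact ORs and -1.17 for the members. A sum is weighted toward the most abundant ORs, which reached 2371 FPKM in the wild-type. The median other intact OR had a log2 fold change of -1.06, so a falling share of OR counts is not particular to the members.

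The size of the change is given for each stretch. Olfr522 to Olfr541 had 7536, 7541 and 7204 normalised counts in the wild-type and 2557, 2038 and 2445 in RTP1,2DKO, which is 31.6% of the wild-type mean. Olfr693 to Olfr716 had 4378, 4980 and 3447 against 1878, 1825 and 1788, or 42.9%. Olfr470 to Olfr519 had 5175, 5814 and 4240 against 4118, 3105 and 3117, or 67.9%, and here the lowest wild-type mouse lay just above the highest RTP1,2DKO mouse. As a share of all counts the groups of Olfr470 to Olfr519 overlapped, with 0.0113% in wild-type replicate 3 and 0.0126% in RTP1,2DKO replicate 1 (exact permutation test, p = 0.2). Each of the 3 sums of normalised counts gave an exact permutation p of 0.1, and the difference between stretches was not tested. Olfr520 and Olfr521 were low, with 24.8, 35.3 and 30.9 against 1.05, 8.72 and 0.98 for both genes together. By single members, 11 of 14 were lower and none higher in Olfr522 to Olfr541, 11 of 20 lower and 1 higher in Olfr693 to Olfr716, and 12 of 38 lower and 1 higher in Olfr470 to Olfr519. Neither of Olfr520 and Olfr521 passed the test.

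**Figure D2:**
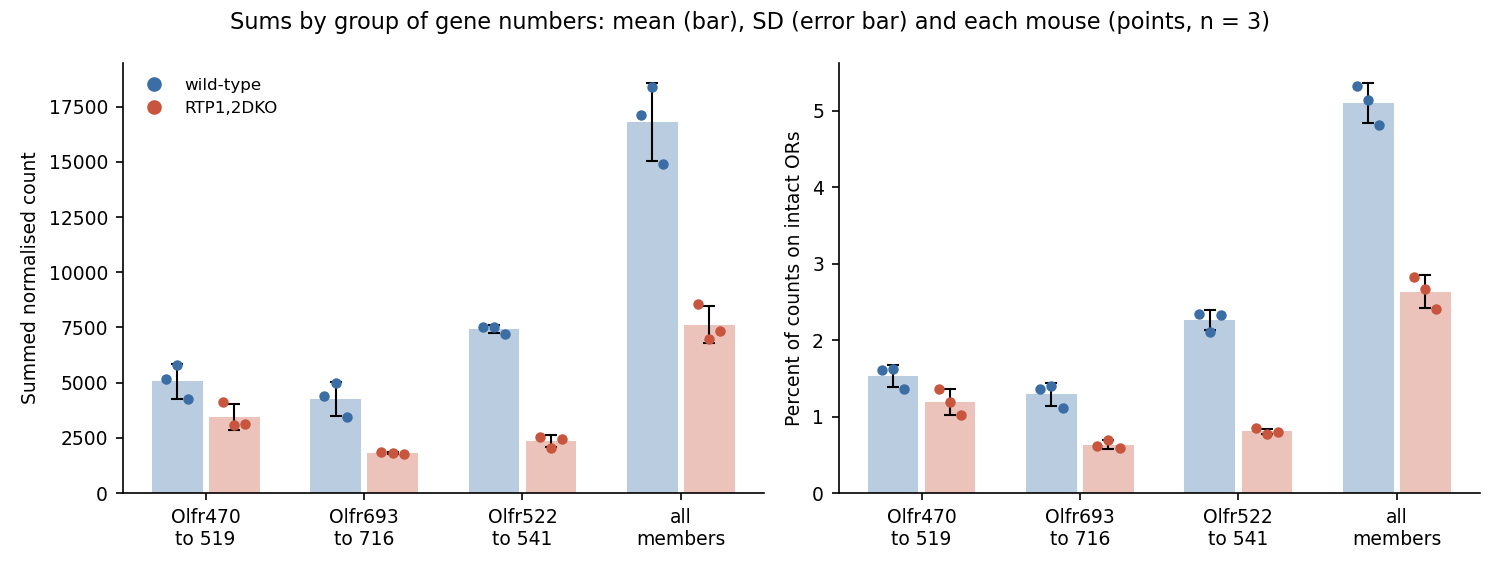
Summed normalised counts (left) and percent of the counts on intact ORs (right) for the 3 long stretches and all 76 members. Bars are means, error bars SD and points the 3 mice of each genotype. In each set the RTP1,2DKO points lie below the wild-type points, with the smallest gap for Olfr470 to Olfr519.

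The most abundant members per length were led by Olfr533, at 71.3 ± 8.9 FPKM in the wild-type (SD, n = 3), in the middle of the last stretch (140463370 to 140468128, plus strand). FPKM is the fragment count set against effective transcript length and library size. The other members with the highest wild-type FPKM were Olfr536 at 20.1, Olfr541 at 16.9, Olfr472 at 14.6, Olfr705 at 9.49, Olfr695 at 8.36, Olfr506 at 7.93 and Olfr477 at 7.35. The median member had 2.08 FPKM, beside 2.74 for the other intact ORs. Of these 8, 6 were lower in RTP1,2DKO, and the other 2, Olfr472 and Olfr477, were not past the threshold.

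Olfr533 had 1356, 1606 and 1563 normalised counts in the wild-type and 279, 258 and 311 in RTP1,2DKO. The RTP1,2DKO mice were at 18.7% of the wild-type mean, with narrow groups that were far apart (log2 fold change -2.42 ± 0.14 SE, adjusted p = 2.7e-06, edgeR). Olfr536 of the same stretch had 2731, 2068 and 2454 against 1008, 647 and 1059 (log2 fold change -1.42 ± 0.18 SE, adjusted p = 0.00057, edgeR). Relative to other ORs Olfr536 had an adjusted p of 0.082 in the edgeR fit, and of 0.0039 with mice of the same replicate number treated as pairs. Olfr541 had 344, 394 and 333 against 66.4, 57.6 and 80.4, which is 19.1% of the wild-type mean (adjusted p = 3.9e-05, edgeR). All 3 genes belong to the last stretch and none of them had overlapping groups.

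Olfr472, the member with the most counts over the 6 mice, was not past the threshold. It had 2604, 2413 and 1869 normalised counts in the wild-type and 2266, 1613 and 1729 in RTP1,2DKO, so that the groups overlapped (log2 fold change -0.30 ± 0.16 SE, adjusted p = 0.53, edgeR). Olfr477, further along the same stretch, had 651, 625 and 482 against 773, 432 and 397 and overlapped as well, with an adjusted p of 0.90 in the edgeR fit. In RTP1,2DKO the first of the mice was the highest for both genes. Olfr472 took 13.6% of all member counts in the wild-type and 24.4% in RTP1,2DKO, and Olfr477 went from 3.48 to 6.87%, while Olfr533 went from 9.05 to 3.73%. These shares are of counts and are not corrected for length. The 8 genes together took 48.6% of the member counts in the wild-type and 50.2% in RTP1,2DKO.

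The largest decreases among the members called over all genes were spread over all 3 long stretches. Some members of low count that did not pass also fell steeply, with log2 fold changes of -3.34 for Olfr497 and -2.96 for Olfr521. Olfr517, an OR of low abundance, had 23.8, 41.0 and 22.1 normalised counts in the wild-type and 1.05, 1.74 and 2.94 in RTP1,2DKO (log2 fold change -3.83 ± 0.73 SE, adjusted p = 0.0083, edgeR). Its RTP1,2DKO libraries held a few counts each, so that the size of this change is known only roughly. Without wild-type replicate 2, Olfr517 did not pass the test. Olfr522, the gene that opens the last stretch and that the study also probed by in situ hybridization, had 323, 322 and 293 against 58.0, 40.1 and 14.7, or 12% of the wild-type mean (log2 fold change -3.06 ± 0.35 SE, adjusted p = 0.00029, edgeR). The wild-type mice were close to each other, whereas RTP1,2DKO replicate 3 was far below the other RTP1,2DKO mice. Among GENCODE M21 transcripts, all words of 31 bases in Olfr522 were found in no other gene. The transcript models that kallisto used were not examined for shared words, here or for other members.

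In Olfr693 to Olfr716 the first member led the decrease. Olfr693 had 756, 898 and 617 normalised counts in the wild-type and 126, 105 and 63.7 in RTP1,2DKO (log2 fold change -2.95 ± 0.24 SE, adjusted p = 3e-05, edgeR). Olfr706 had 468, 416 and 251 against 58.0, 68.9 and 35.3 and Olfr705 beside it had 365, 544 and 389 against 73.8, 54.9 and 73.5. Olfr706 was at 14.3% and Olfr705 at 15.6% of the wild-type mean, and their groups were far apart. Olfr703, with 126, 187 and 98.1 against 20.02, 29.7 and 28.4, and Olfr532 of the last stretch, with 342, 593 and 329 against 87.5, 103 and 75.5, had adjusted p-values of 0.001 and 0.00022 in the edgeR fit. Olfr510 completed the largest called decreases, with 46.5, 45.8 and 60.6 against 7.38, 12.2 and 12.7, and it was not past the threshold without wild-type replicate 3 (log2 fold change -2.22 ± 0.44 SE, adjusted p = 0.011 with all mice, edgeR).

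Members that were lower sat next to each other in 3 runs of 4 or more neighbours. Olfr703 to Olfr706 made a run of 4, Olfr522 to Olfr525 another of 4, and Olfr531 to Olfr538 a run of 6. The run of 6 ended with Olfr538, which had 48.6, 49.6 and 38.6 normalised counts against 13.7, 13.1 and 12.7 and was past the threshold in none of the 6 fits without 1 mouse and not with mice of the same replicate number treated as pairs (adjusted p = 0.034 unpaired and 0.052 paired, edgeR). Between the last pair of runs sat Olfr527 and Olfr530, and Olfr539 followed the last run, and these 3 members of this stretch were not past the threshold. Olfr530 still had every RTP1,2DKO mouse below every wild-type mouse (log2 fold change -0.83 ± 0.25 SE, adjusted p = 0.11, edgeR). A run of called neighbours in a stretch with 11 of 14 members called is no separate result.

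**Figure D3:**
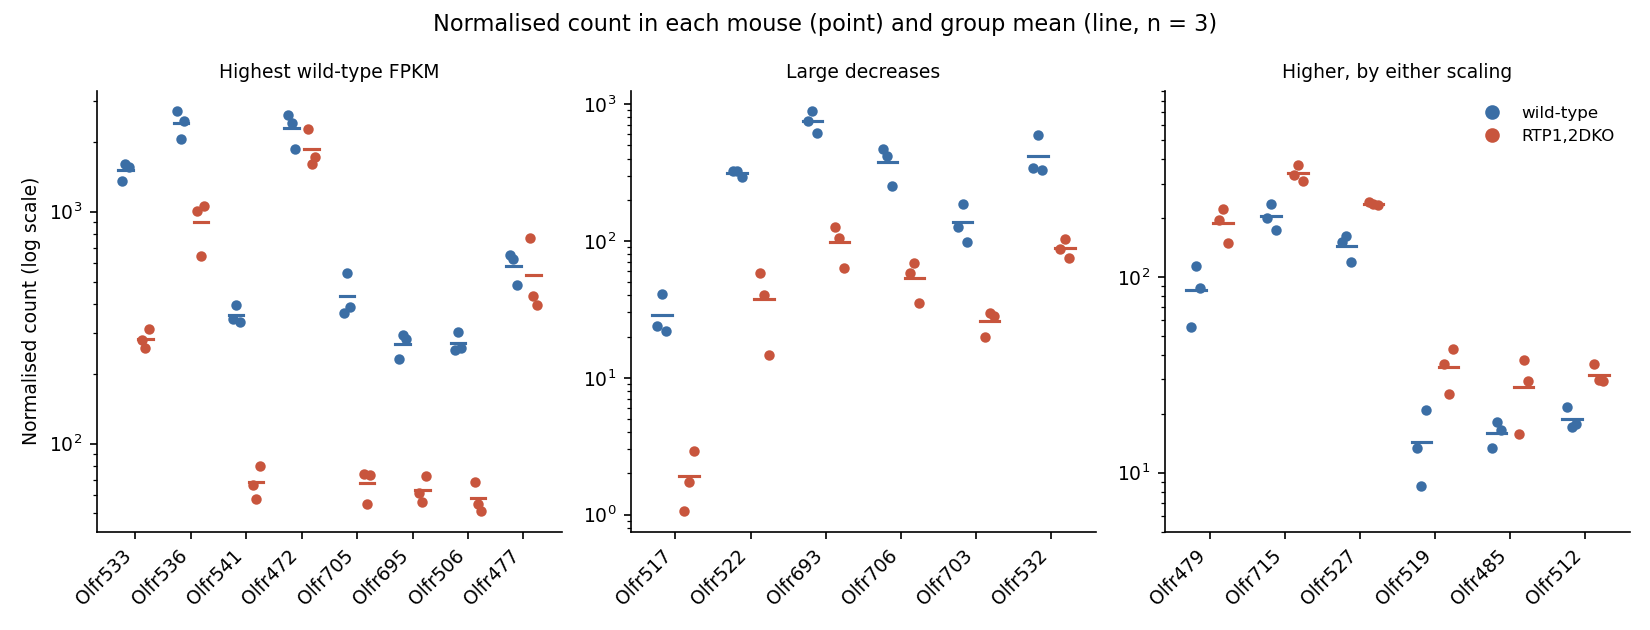
Normalised count in each of the 6 mice on a log axis for the 8 members with the highest wild-type FPKM (left), 6 members with large decreases (middle) and 6 members that were higher by either scaling (right). Points are mice and lines group means. Olfr472 and Olfr477 are the members at the left whose genotypes overlap.

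Olfr479 and Olfr715 were the members higher in RTP1,2DKO with counts scaled over all genes. Olfr479 had 55.9, 114 and 88.2 normalised counts in the wild-type and 197, 223 and 150 in RTP1,2DKO, or 2.21 times the wild-type mean (log2 fold change 1.14 ± 0.28 SE, adjusted p = 0.041, edgeR). Olfr715 had 202, 238 and 174 against 334, 376 and 311, or 1.66 times (log2 fold change 0.73 ± 0.18 SE, adjusted p = 0.041, edgeR). In both genes every RTP1,2DKO mouse was above every wild-type mouse. With 1 mouse left out, Olfr479 passed in 2 of 6 fits and Olfr715 in 1 of 6. Only 50.2% of the 31-base words of Olfr715 were found in no other gene, so part of its estimated count may depend on how kallisto divided shared reads.

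Scaling over intact ORs asks which members changed relative to the typical OR. The median of ratios over intact ORs used here sets the median change among ORs near 0, and it is not shown to be the OR scaling that the study used. Of the 74 members, 23 were then lower, 12 higher and 39 not past the threshold, or 31.1% and 16.2%, where 25.9% of the 1078 intact ORs tested were lower and 29.1% were higher. The median log2 fold change was -0.52 for the members and -0.10 for the other intact ORs. Of the 34 members that were lower over all genes, 21 were lower by this scaling too and 13 were not past the threshold. By stretch, 7 of 14 members were lower and 2 higher in Olfr522 to Olfr541, 8 of 20 lower and 2 higher in Olfr693 to Olfr716, and 7 of 38 lower and 8 higher in Olfr470 to Olfr519. With counts scaled instead to the total on intact ORs, 43 members were lower and 4 higher, so the split between directions depends on how the ORs are scaled. The shares among all intact ORs were not counted for the total-count scaling, so these counts do not set the members apart from other ORs.

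**Figure D4:**
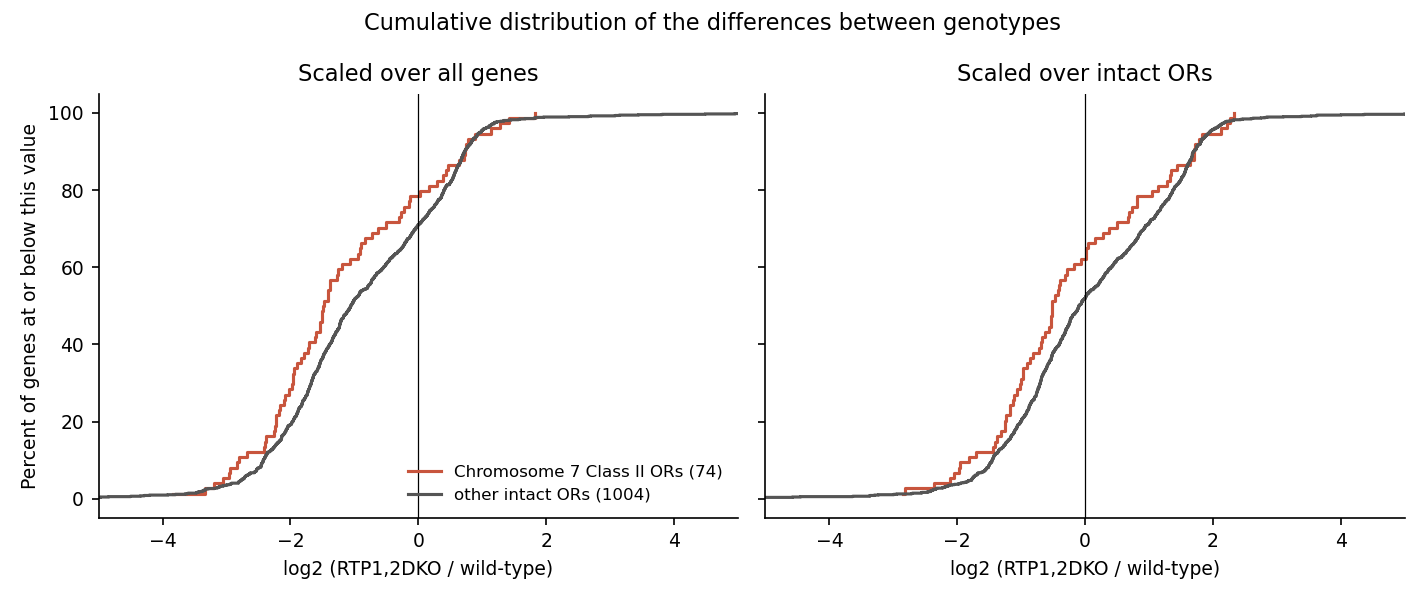
Percent of genes at or below each log2 ratio of RTP1,2DKO to wild-type, for 74 Chromosome 7 Class II ORs and 1004 other intact ORs, with counts scaled over all genes (left) and over intact ORs (right). The curve of the members lies to the left of the other ORs around the median, at -1.48 against -1.06 on the left and -0.52 against -0.10 on the right.

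The 8 members with the largest decrease by this scaling were Olfr517, Olfr497, Olfr522, Olfr693, Olfr521, Olfr706, Olfr705 and Olfr533, with log2 fold changes from -2.85 to -1.45. Olfr497 had 25.9, 20.04 and 6.62 normalised counts, scaled over all genes, in the wild-type and 1.05, 0 and 3.92 in RTP1,2DKO, and Olfr521 had 15.5, 35.3 and 30.9 against 0, 8.72 and 0.98. At these low counts the edgeR test on ORs gave adjusted p-values of 0.047 and 0.037, the one on all genes 0.13 for both, and each passed in 2 of the 6 OR fits without 1 mouse. With the mice paired by number, Olfr497 had an adjusted p of 0.087 in the edgeR fit over ORs.

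The members higher relative to other ORs were Olfr519, Olfr479, Olfr470, Olfr485, Olfr715, Olfr512, Olfr527, Olfr480, Olfr539, Olfr711, Olfr477 and Olfr472. With counts scaled to the total on intact ORs, 8 of these were no longer higher, and the remaining 4 were Olfr479, Olfr519, Olfr527 and Olfr715. Olfr519 had 13.4, 8.59 and 20.9 normalised counts, scaled over all genes, in the wild-type and 35.8, 25.3 and 43.1 in RTP1,2DKO (log2 fold change over ORs 2.22 ± 0.51 SE, adjusted p = 0.00025, edgeR). Olfr527 had 152, 163 and 119 against 243, 235 and 234 (log2 fold change over ORs 1.70 ± 0.24 SE, adjusted p = 3.9e-08, edgeR; over all genes 0.71 ± 0.19 SE, adjusted p = 0.071). In both genes the groups did not overlap. Olfr512 had 21.7, 17.2 and 17.6 against 35.8, 29.7 and 29.4, and Olfr485 had 13.4, 18.1 and 16.5 against 15.8, 37.5 and 29.4, with 1 RTP1,2DKO mouse inside the wild-type range. Olfr470, with 6.21, 13.4 and 14.3 against 27.4, 4.36 and 31.4, and Olfr480, with 4.14, 14.3 and 14.3 against 10.5, 29.7 and 10.8, overlapped and passed in 3 of 6 fits without 1 mouse. With the mice paired, their adjusted p-values in the edgeR fit over ORs were 0.063 and 0.069.

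For the abundant Olfr472, Olfr477 and Olfr711 the call depended on the scaling. Olfr711 had 442, 365 and 351 normalised counts, scaled over all genes, in the wild-type and 413, 450 and 441 in RTP1,2DKO, with overlapping groups (log2 fold change 0.17 ± 0.15 SE, adjusted p = 0.77, edgeR). Relative to intact ORs its log2 fold change was 1.15 ± 0.22 SE (adjusted p = 1.5e-05, edgeR), and those of Olfr472 and Olfr477 were 0.67 and 0.81. Without wild-type replicate 3 Olfr472 did not pass over ORs, and with counts scaled to the total on intact ORs it had a log2 fold change of -0.11.

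ORs in a cluster are often close relatives, and the coding sequences from GENCODE M21 (GRCm38) showed how close. Among 2850 pairs of members the median identity was 56.8% and the highest 96.2%, between Olfr486 and Olfr487. The median member shared 88.1% of its bases with its nearest relative. Pairs were looked up after the calls were known, so their differences are given as a description with no test.

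Olfr527 and Olfr531 shared 93.1% of their aligned coding bases, with 60 mismatches and 3 gap positions, and lay in opposite orientation. The gap-free window of 240 coding bases with the most differences is shown for each, with the 26 differing bases in capitals, since these genes had opposite calls relative to other ORs. The window is at chr7:140336107-140336346 on the plus strand for Olfr527 and at chr7:140400565-140400804 on the minus strand for Olfr531, and is printed 5′ to 3′ along the coding strand.
Olfr527: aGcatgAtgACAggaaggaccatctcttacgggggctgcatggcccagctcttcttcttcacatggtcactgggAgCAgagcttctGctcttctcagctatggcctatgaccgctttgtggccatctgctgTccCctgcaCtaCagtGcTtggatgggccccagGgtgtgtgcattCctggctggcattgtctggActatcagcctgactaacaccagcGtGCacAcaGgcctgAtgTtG
Olfr531: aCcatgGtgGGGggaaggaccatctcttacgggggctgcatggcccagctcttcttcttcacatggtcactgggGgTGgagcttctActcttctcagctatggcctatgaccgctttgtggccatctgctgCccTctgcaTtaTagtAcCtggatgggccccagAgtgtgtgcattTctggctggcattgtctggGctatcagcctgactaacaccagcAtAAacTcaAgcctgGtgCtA
Olfr531 had 500, 642 and 559 normalised counts in the wild-type and 133, 140 and 122 in RTP1,2DKO, while Olfr527 had 152, 163 and 119 against 243, 235 and 234. The wild-type mice thus had more Olfr531 and the RTP1,2DKO mice more Olfr527. The log2 ratio of Olfr527 to Olfr531 within a mouse, with 0.5 added to each count, was -1.97 ± 0.26 in the wild-type and 0.85 ± 0.09 in RTP1,2DKO (SD, n = 3), a difference of 2.82 that does not depend on the scaling. Of the 31-base words, 93.2% in Olfr527 and 93.8% in Olfr531 were found in no other gene.

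Olfr539 and Olfr541, neighbours at the end of the last stretch, shared 89.6% of their coding bases. The pair was picked because its members had opposite calls relative to other ORs. At a higher identity only Olfr527 and Olfr531 had such opposite calls. Olfr535 was a nearer relative of Olfr541, at 91.5%, and both were lower by both scalings (log2 fold changes over all genes -1.97 and -2.39). The windows are at chr7:140667735-140667974 and chr7:140704678-140704917, both on the plus strand, with the 36 differing bases in capitals.
Olfr539: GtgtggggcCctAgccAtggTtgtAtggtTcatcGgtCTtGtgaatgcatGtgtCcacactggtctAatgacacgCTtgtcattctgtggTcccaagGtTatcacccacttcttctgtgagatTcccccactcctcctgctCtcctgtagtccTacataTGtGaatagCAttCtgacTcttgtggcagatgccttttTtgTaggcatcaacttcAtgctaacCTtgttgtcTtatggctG
Olfr541: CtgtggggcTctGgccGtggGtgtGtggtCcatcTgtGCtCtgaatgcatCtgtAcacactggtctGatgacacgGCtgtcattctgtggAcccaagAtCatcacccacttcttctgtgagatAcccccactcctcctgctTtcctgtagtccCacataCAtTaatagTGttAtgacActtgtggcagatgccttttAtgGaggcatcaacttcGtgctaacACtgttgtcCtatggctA
Olfr539 had 32.1, 61.1 and 57.3 normalised counts in the wild-type and 68.5, 82.8 and 55.9 in RTP1,2DKO, so that its groups overlapped, whereas Olfr541 was at 19.1% of its wild-type mean. The log2 ratio of Olfr539 to Olfr541 went from -2.87 ± 0.47 to 0.02 ± 0.52 (SD, n = 3), a difference of 2.89.

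Olfr516 and Olfr519 in Olfr470 to Olfr519 shared 93.2%. The windows are at chr7:108845537-108845776 and chr7:108893934-108894173, both on the minus strand, with the 27 differing bases in capitals.
Olfr516: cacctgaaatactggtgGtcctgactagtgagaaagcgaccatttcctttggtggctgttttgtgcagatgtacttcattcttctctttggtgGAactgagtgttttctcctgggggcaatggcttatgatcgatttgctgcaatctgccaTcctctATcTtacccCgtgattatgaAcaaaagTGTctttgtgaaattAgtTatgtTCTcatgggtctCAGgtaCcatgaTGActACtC
Olfr519: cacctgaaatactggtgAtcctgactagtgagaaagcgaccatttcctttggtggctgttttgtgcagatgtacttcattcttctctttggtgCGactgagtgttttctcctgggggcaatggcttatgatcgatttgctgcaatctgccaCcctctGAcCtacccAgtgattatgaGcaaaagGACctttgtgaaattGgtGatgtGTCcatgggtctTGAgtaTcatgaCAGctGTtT
Olfr516 had 60.0, 124 and 44.1 normalised counts in the wild-type and 23.2, 20.1 and 26.5 in RTP1,2DKO (log2 fold change -1.71 ± 0.43 SE, adjusted p = 0.045, and 0.057 with the mice paired, edgeR), and it passed in 1 of 6 fits without 1 mouse. Neither scaling called both genes, as Olfr519 did not pass over all genes (adjusted p = 0.30, edgeR) and Olfr516 did not pass over ORs (adjusted p = 0.13, edgeR). Only 59.1% and 51.4% of their 31-base words were found in no other gene, so that reads could be divided wrongly between them. The log2 ratio of Olfr516 to Olfr519 was 2.32 ± 1.37 in the wild-type and -0.55 ± 0.19 in RTP1,2DKO.

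**Figure D5:**
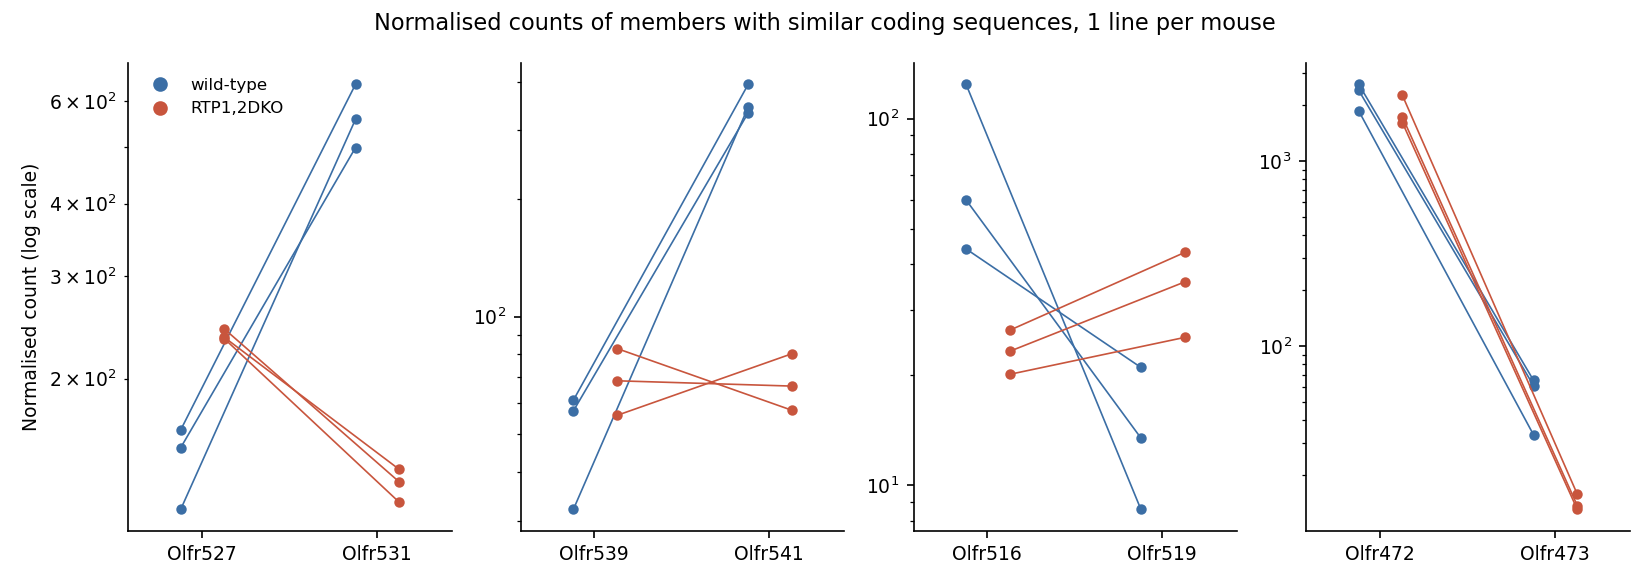
Normalised counts (log axis) of 4 pairs of members with similar coding sequences, with 1 line for each of the 3 wild-type and 3 RTP1,2DKO mice. For Olfr527 and Olfr531, and for Olfr516 and Olfr519, the lines of the genotypes slope in opposite directions.

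Not all relatives differed this way. Over all genes Olfr694 and Olfr704, at 94.0% identity, were both lower, as were Olfr525 and Olfr532 at 91.5%. Relative to other ORs Olfr694 and Olfr532 were lower, while Olfr704 and Olfr525 did not pass (adjusted p = 0.13 and 0.14, edgeR). Olfr472 and Olfr473, at 93.1%, differed, with 65.2, 61.1 and 33.1 against 15.8, 13.1 and 13.7 normalised counts for Olfr473 (adjusted p = 0.028, edgeR, and past the threshold in 1 of 6 fits without 1 mouse) and overlapping groups for Olfr472. The log2 ratio of Olfr472 to Olfr473 went from 5.47 ± 0.29 to 6.98 ± 0.12 (SD, n = 3). Olfr530 and Olfr536, at 93.7%, had log2 fold changes over all genes of -0.83 and -1.42, and only Olfr536 passed the test.

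The transcript models of the members differed in length, and this moved with the calls. Of the 54 members with a model of 1100 bases or more, 30 were lower and 2 higher over all genes, with a median log2 fold change of -1.52. Of the 20 tested members with only shorter models, 4 were lower and none higher, with a median of 0.16. Some of these had few counts over the 6 mice, with 1 for Olfr514, 3 for Olfr474 and 27 for Olfr700, while Olfr539 had 363. The other intact ORs were not split by model length. Median wild-type FPKM was 2.66 in the first set and 0.87 in the second. The part of model length in the calls was not tested. Olfr699 shows how the split between transcripts can matter, as its count went from 166, 197 and 111 to 70.6, 89.0 and 65.7 (log2 fold change -1.07 ± 0.27 SE, adjusted p = 0.048, edgeR, past the threshold in 1 of 6 fits without 1 mouse), while its FPKM went from 3.56 ± 0.81 to 0.64 ± 0.04. Its shortest model, of 950 bases, took 23.0% of its count in the wild-type and 1.53% in RTP1,2DKO.

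Olfr503 and Olfr504 had no count in any mouse, and Olfr514 had under 3 counts in all mice together. A count of 0 in a library allows up to 3 counts. Olfr503 and Olfr504 were thus not detected at this depth, which does not show that they were absent. Among the members tested, 21 had at least 95% of words unique to the gene, and 10 of these were lower and 1 higher over all genes.

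The other genes of the OR pathway gave a background for these values. The 22 genes listed include all 7 mature OSN markers given above, whose 6 lower calls are counted again here. Of the 22, 12 were lower, Rtp1 and Rtp2 themselves among them, none was higher and 10 were not past the threshold. With the mice paired 14 were lower, Gnb1 and Gng13 of the transduction G protein being the genes gained. Among the signalling genes that act after an OR has bound an odorant, those that were lower include Adcy3, the adenylyl cyclase of the cilia (log2 fold change -1.41 ± 0.13 SE), Cnga2, a subunit of the cyclic nucleotide-gated channel (-1.06 ± 0.14 SE), and Gnal, which encodes the olfactory G protein alpha subunit (-0.94 ± 0.17 SE). Lhx2, Ldb1 and Ebf1, which encode factors at OR enhancers, had log2 fold changes of 0.19, 0.04 and 0.08 and did not pass the test, nor did Kdm1a and Atf5, which act in OR gene choice, at 0.18 and 0.13. The chaperone and stress genes Hspa5, Ddit3 and Eif2ak3 had log2 fold changes of -0.08, 0.08 and -0.05 and did not pass either.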

How the data were processed

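RNA-Seq libraries of whole olfactory mucosa were made from 3 wild-type and 3 RTP1,2DKO mice with a stranded kit, named KAPA in the labels and TruSeq in the methods. The authors ran kallisto on mouse transcripts (mm10) with extended OR models and deposited estimated counts, TPM and lengths for 38041 transcripts. The deposited TPM values were not used. The kallisto version and strand setting are not given in the sources used here.

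Estimated counts were summed per gene and rounded, and FPKM computed from counts and effective lengths. All genes reaching 1 count in any mouse entered a quasi-likelihood fit (edgeR 4.0.16, R 4.3.3) with DESeq2 1.42.0 size factors, once over all genes and once over intact ORs, at a Benjamini-Hochberg adjusted p of 0.05. Normalised counts are counts divided by the size factors over all genes, SE is the fold change over the root of F, and sums were compared by exact permutation (scipy 1.17.1). On simulated counts the share of false calls was above the nominal level in the fit over all genes. Positions and coding sequences came from GENCODE M21 (GRCm38).

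The methods name sex-matched littermates. Deviations from group means of mice with the same replicate number correlated at 0.14, 0.177 and 0.101. Mice with different numbers gave values from -0.217 to 0.0902. The genes used were the 18156 with a mean of at least 10 counts. On these values the numbers were taken as pairs in an alternative fit, though no label says that a number marks a litter. The edgeR p-values set the difference between genotypes against the spread between mice within groups of 3, estimated with information shared across genes. The permutation p-values come from the ways to divide the mice between the groups. Named members were the 8 highest in wild-type FPKM, the 10 largest called decreases and increases over all genes, the 8 of each over ORs, Olfr522, members under 3 counts and the ends of runs of at least 4 called neighbours. Coding-sequence pairs, Olfr711 and Olfr699 were chosen after their values were seen. The members and lists were chosen with earlier results of these data known. Alternatives were TMM, other OR scalings, low-count filters, DESeq2's Wald test, pairing, each mouse left out, and members with mostly unique 31-base words or longer models, the last added after seeing the data.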

Additional observations from a re-analysis of the deposited data

How the results depend on the processing

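The count of lower members over all genes, 34, was 34 with TMM, 31 with filterByExpr, 38 with DESeq2's Wald test, 31 with the replicate block and 23 to 30 with each mouse left out, the 23 without wild-type replicate 2. Limited to members whose words are at least 95% unique it was 10, of fewer members. The count of higher members, 2, was 1 with filterByExpr and among those unique members, 2 with the replicate block, 3 with DESeq2, and 0 to 2 with each mouse left out. It was 0 without wild-type replicate 1 or 3 and without RTP1,2DKO replicate 1 or 2. The replicate block lost the calls of Olfr516, Olfr538 and Olfr714 and changed no other call over all genes. Over intact ORs, where 23 members were lower and 12 higher, the total count on intact ORs gave 43 and 4, the block 23 and 10, DESeq2 21 and 12, and leaving out a mouse 18 to 23 and 10 to 14. Shares among all intact ORs were not counted for these alternatives. The block lost Olfr470, Olfr480 and Olfr497, gained Olfr536 and changed no other call. Members with a model of 1100 bases or more had 7 higher, of fewer members. The log2 fold changes of 3 named members turned sign. With each mouse left out, Olfr477 over all genes ranged from -0.50 to 0.036, positive without RTP1,2DKO replicate 3, and Olfr480 from -0.037 to 0.89, negative without RTP1,2DKO replicate 2, and Olfr472 over ORs was -0.11 with the total count on intact ORs. The log2 ratio of the summed counts, -1.14, stayed between -1.23 and -1.07 under its alternatives, the block included, and the difference in share of OR counts, -2.46 percentage points, between -2.83 and -2.34, with no p below 0.1 possible. The causes of these moves were not tested.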
